A study of Mus musculus with 4 samples.

Results

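Interferon-stimulated genes were followed in samples labelled as cells of bone marrow origin in fibrotic mouse liver, after granulocyte colony-stimulating factor (G-CSF) or its vehicle. The set was a list of 46 genes chosen by name as known interferon targets: the antiviral Ifit, Oas and Mx families, further antiviral effectors, nucleic acid sensors, the transcription factors Stat2, Irf1, Irf7 and Irf9, interferon-induced GTPases, the PARP and DTX3L group, and antigen-processing genes. Each gene was read by its single-gene probe set with the highest mean signal. Of the 46 genes, 44 had such a probe set, among 18193 genes on the array, and 43 had a mean signal above the filter of 95.0, among 12187 genes. Mx2 lay below the filter, Isg15 shared its probe set with another gene, and Ifi44 was not analysed here.

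Both groups were C57BL/6 mice given 30 injections of carbon tetrachloride at 1 ml/kg, a hepatotoxin that scars the liver. During the last 7 days, the G-CSF group was given the recombinant human factor at 100 µg/kg, and the PBS group mouse serum albumin at 0.1% in phosphate-buffered saline (PBS). Total RNA of 2 PBS and 2 G-CSF samples was hybridised to 1 Affymetrix array each, and the labels name liver as tissue and bone marrow-derived cells as cell type. Hepatocyte transcripts were abundant throughout, with Alb at 43301 to 52315, a transcript of a cell type that the label does not cover. The labels state no age, sex, sort or pooling, and do not say that replicates are separate animals, so p-values describe only how far these arrays spread. The number of arrays limits the precision of every value below.

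Type I interferons act through the receptor chains Ifnar1 and Ifnar2 and bring STAT2 and IRF9 into a complex that binds the interferon-stimulated response element (ISRE). Interferon gamma acts through Ifngr1 and Ifngr2 and on promoters with the gamma-activated sequence (GAS). In liver, Kupffer cells, endothelial cells, hepatocytes and infiltrating leukocytes can all express these genes.

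The promoters of several members carry these elements, and 5 are shown because they belong to pairs of relatives, Ifit3 with Ifit1 and Igtp with Irgm2, and to Irf1, a gene with a GAS match. RefSeq promoter windows of build GRCm38.p6, from 250 bases before to 50 after each start, were searched on both strands for the ISRE core (GAAA, any 2 bases, GAAA) and for the GAS letters TTCNNNGAA. All 5 stretches lie before the start on the + strand of their chromosome, and capitals mark the match to the element named with each. The Igtp and Irgm2 stretches also hold a GAS match each, left in lower case ahead of the ISRE core. The stretches are chr19:34583353-34583436 for Ifit3, chr19:34640765-34640833 for Ifit1, chr11:58199502-58199551 for Igtp, chr11:58214893-58214942 for Irgm2 and chr11:53769904-53769952 for Irf1.
Ifit3, ISRE core: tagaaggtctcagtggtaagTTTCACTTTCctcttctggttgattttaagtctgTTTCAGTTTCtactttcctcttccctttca
Ifit1, ISRE core: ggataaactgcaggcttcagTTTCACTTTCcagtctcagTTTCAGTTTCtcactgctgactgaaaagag
Igtp, ISRE core: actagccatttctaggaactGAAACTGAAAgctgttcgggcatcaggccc
Irgm2, ISRE core: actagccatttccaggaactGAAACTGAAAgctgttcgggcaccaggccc
Irf1, GAS: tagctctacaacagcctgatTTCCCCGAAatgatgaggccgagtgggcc

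Promoter windows were found for 34 of the 46 genes, and 17 of these 34 had an ISRE core match in at least 1 window. Counted by window, that was 41.9% of 43 windows, against 3.44% of all 32851 windows. A GAS match was found in 10 of the 34 genes and in 23.3% of their windows, against 8.30% of all windows, and 5 genes had both. The ISRE core was present in all 5 GTPase genes with a window and in 4 of 7 Ifit, Oas and Mx genes with a window. Ifit3 and Ifit1 each carried 2 matches, and the Igtp and Irgm2 stretches were identical at 48 of 50 bases. A match is a run of letters and was not tested as a binding site.

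No gene of the set passed the test between G-CSF and PBS, and the differences were small. With limma over 12187 genes and Benjamini-Hochberg adjustment at 0.05, 0 of 43 genes of the set and 0% of all genes were called, in either direction. The lowest adjusted p in the set was 0.945, for Ifit3. In simulated data with equal spread in both groups, the same fit called 0% of genes changed 2-fold and 0.4% of those changed 4-fold. Mpo, a neutrophil marker 104-fold higher with G-CSF, had an adjusted p of 0.068 by limma and was not called. The absence of calls thus does not show that genes of the set were unchanged. Without PBS replicate 1, limma called 3 genes of the set, Ifit3, Irf7 and Iigp1, all lower, beside 4.23% of all genes. Without PBS replicate 2 it called 11, of which 5 were higher (Oas2, Oasl2, Cmpk2, Rtp4 and Samd9l) and 6 lower (Ifit2, Ifit3, Usp18, Gbp3, Igtp and Psmb8), beside 38.5% of all genes. Those fits take the spread from the G-CSF arrays alone, whose pooled SD over all genes was 0.29 on the log2 scale against 0.82 for the PBS arrays. At an unadjusted p below 0.05 there were 2 genes of the set, Ifit3 and Ifit2, both lower with G-CSF, which is 4.65% of the set. At that level 3.52% of all genes differed, 0.386% lower and 3.13% higher. All differences subtract PBS from G-CSF as log2(signal + 23), a scale that understates the change of dim genes. Fold values here and below compare group means on that scale and are not ratios of mean signals. The differences are given with the standard error (SE) of the fit and n = 2 arrays per group. Their median over the 43 genes was −0.04, against 0.07 over all genes, and 40 of the 43 lay within 1 log2 unit of 0. An exact permutation test of 1 gene with 2 arrays against 2 reaches 0.333 at the lowest (two-sided).

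The direction of the set depended on which PBS array was the reference. Against PBS replicate 1 alone the median over the set was 0.20 and 15 of 43 genes were below 0, while against PBS replicate 2 alone it was −0.36 and 34 of 43 were below 0. The shares below 0 over all genes were 41.8% and 49.9%. PBS replicate 2 held the highest level of the 4 arrays for 21 of 43 genes of the set, against 28.4% of all genes. PBS replicate 1 held the lowest level for 21 of 43, against 47% of all genes. Only 18 of the 43 genes had the same sign against both PBS arrays. The gap between the PBS arrays was larger than the gap between the G-CSF arrays for 35 of the 43 genes and for 80.3% of all genes.

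PBS replicate 1 differed from the other arrays over the whole table, and cell type markers moved with it. Its correlation with the other 3 arrays over 12187 genes was 0.813 to 0.844, against 0.939 to 0.974 among the others. The summed signal of 9 T cell markers was 26823 there and 1204 to 1744 elsewhere, that of 7 hepatocyte markers was 147370 there and 208843 to 242636 elsewhere, and that of 8 Kupffer cell markers was 11575 there and 20344 to 34383 elsewhere. The Kupffer genes Marco and Timd4 were below background on all 4 arrays. The summed signal of 7 NK and cytotoxic cell markers was 35770 there and 1404 to 1662 elsewhere, nearly all of it from Gzma. The summed signal of 9 neutrophil markers was 25406 and 7922 under PBS against 232217 and 198181 under G-CSF. Of 6 monocyte markers, 4 had separated groups and a G-CSF mean 2-fold or more above PBS. F13a1, Vcan, Ccr2 and Ace differed by 3.70, 1.93, 1.71 and 1.18 on the log2 scale. Fn1 (0.37) and Treml4 (−0.18) overlapped between the groups. The summed signal of all 6 was 6203 and 16589 under PBS against 15437 and 18601 under G-CSF. Fn1 alone gave 4699 and 13388 of it under PBS and 9468 and 11057 under G-CSF. The ratio of 3′ to 5′ signal of the Gapdh control was 14.8 to 15.7 with PBS and 19.1 to 20.2 with G-CSF. The part of these shifts in the values below was not tested, and in such mixed samples fewer cells of a type and less RNA per cell cannot be told apart.

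**Figure D1:**
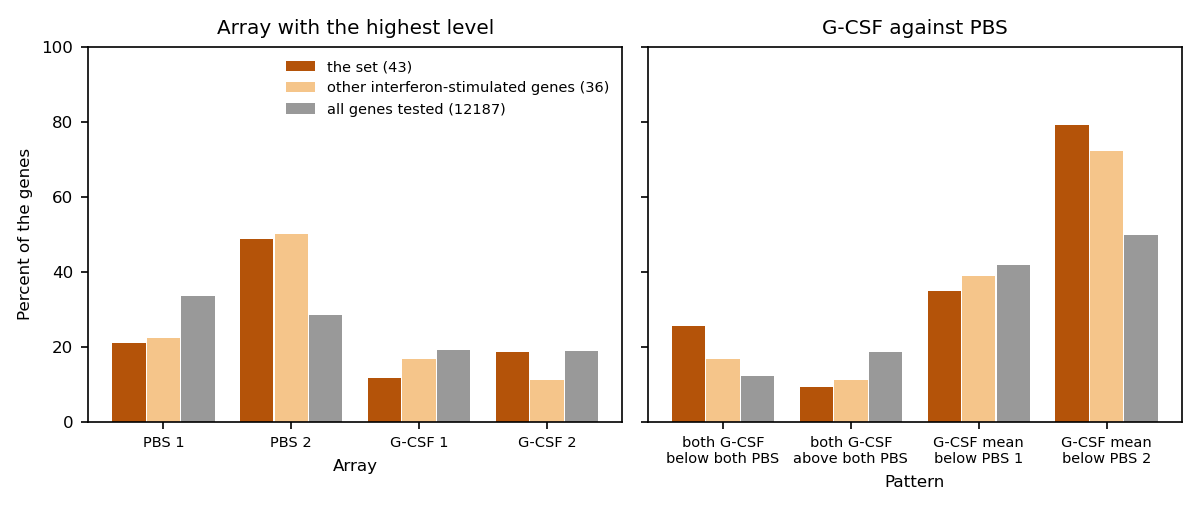
Left, the percent of genes whose highest level lay on each array, and right, the percent with each pattern between G-CSF and PBS, for the 43 genes of the set, 36 other interferon-stimulated genes and all 12187 genes tested. PBS replicate 2 held the highest level for 48.8% of the set against 28.4% of all genes, and the mean of the G-CSF arrays was below PBS replicate 2 for 79.1% of the set.

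Some genes separated the groups on all 4 arrays. Both G-CSF arrays lay below both PBS arrays for 11 of 43 genes, or 25.6%, where 12.1% of all genes did so. These were Ifit3, Ifit2, Gbp3, Irf7, Eif2ak2, Usp18, Igtp, Mx1, Irf1, Parp9 and Adar. Both G-CSF arrays lay above both PBS arrays for 4 of 43, or 9.30%, where 18.6% of all genes did so. These were Samd9l, Cmpk2, Oas2 and Tap1. Together the 15 genes made up 34.9% of the set, against 30.7% of all genes. At a size of at least 2-fold, 3 of 43 were lower (Ifit3, Ifit2 and Gbp3), or 6.98% against 1.52% of all genes, and 0 were higher, against 4.04%. In either direction 5.56% of all genes reached that size. The count of 3 became 1 with a pseudocount of 92. Groups separate more readily once 1 of them holds a single array, over all genes as well as in the set. Counts from 3 arrays therefore cannot be read against the shares above. With 1 array left out, the difference ran from −1.47 to −1.08 for Ifit3, from −1.45 to −0.66 for Ifit2 and from −1.45 to −0.55 for Gbp3. Just outside that size lay Samd9l, Cmpk2 and Irf7, and Gbp3 lay at 2.001-fold. With quantile normalization the counts below and above were 13 and 5, beside 13.3% and 17.5% of all genes. With median centring they were 13 and 4, beside 14.6% and 15.7% of all genes.

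**Figure D2:**
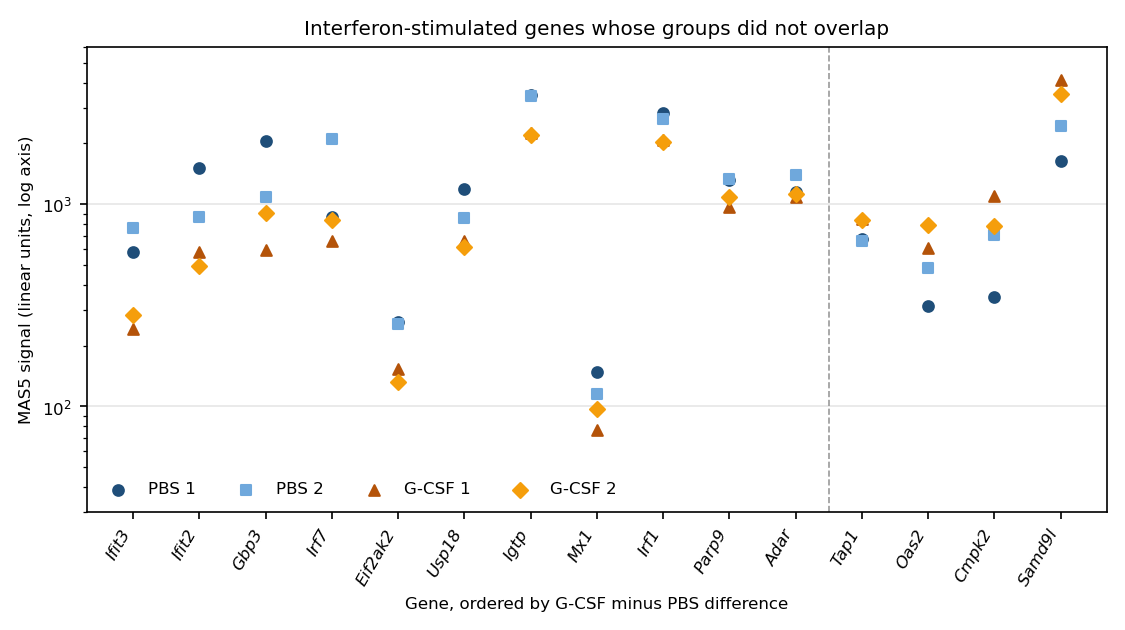
MAS5 signal on a log axis for the 15 genes whose PBS and G-CSF arrays did not overlap, ordered by difference, with a point for each array. The 11 genes left of the dashed line were lower on both G-CSF arrays, with Ifit3 at 241 and 284 against 580 and 765, and the 4 to its right were higher.

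Within the Ifit family, the tetratricopeptide proteins that bind foreign RNA, Ifit3 and Ifit2 were low with G-CSF and Ifit1 was not. Ifit3 read 580 and 765 in the first and second PBS sample, against 241 and 284 in the G-CSF samples. Every G-CSF value was thus below every PBS value, and the group means lay 2.42-fold apart (−1.28 ± 0.34, limma adjusted p = 0.945). Ifit2, the gene next to Ifit3 among protein-coding genes of GRCm38.p6, had 1510 and 864 under PBS against 582 and 498 under G-CSF. Its difference was −1.05 ± 0.40 (limma adjusted p = 0.988), and it was −0.66 against PBS replicate 2 alone. Ifit1 had 440 and 851 under PBS against 424 and 837 under G-CSF. The Ifit1 values overlapped fully, with a near equal gap in each group (−0.04 ± 0.51), although its promoter window also carries 2 ISRE core matches. The difference between Ifit3 and Ifit1 was not tested.

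The Oas family makes 2-5A, a messenger that activates RNase L, and Oas2 was its member with separated groups. Oas2 gave signals of 315 and 484 under PBS against 610 and 792 under G-CSF. It was 1.74-fold higher (0.80 ± 0.38, limma adjusted p = 0.988), and 0.50 higher on the log2 scale against PBS replicate 2 alone. Its neighbour Oas3 had 125 and 183 under PBS against 238 and 128 under G-CSF, and these values overlapped (0.18 ± 0.46). Oas1a had 1260 and 1626 under PBS against 1413 and 1662 under G-CSF. Its groups overlapped as well (0.10 ± 0.34). Oasl2, an OAS-like protein, had 290 and 1050 under PBS against 583 and 878 under G-CSF. The PBS arrays alone spanned both G-CSF values, so its difference of 0.35 ± 0.66 was 1.24 against PBS replicate 1 and −0.54 against PBS replicate 2. Oasl1, which lies next to Oasl2 and restrains Irf7 translation, had 260 and 389 under PBS against 268 and 256 under G-CSF (−0.26 ± 0.37). The Oasl1 value of PBS replicate 2 stood above the other 3.

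Mx1, a dynamin-like antiviral GTPase, gave signals of 148 and 116 under PBS against 76.1 and 96.9 under G-CSF (−0.50 ± 0.43, or −0.33 with a pseudocount of 92). All were close to the background limit of 63.0 to 106, taken on each array as the maximum over 27 probe sets that read no mouse gene, and G-CSF replicate 1 was below its own limit. Mx2 had 12.5 and 118 under PBS against 44.9 and 19.9 under G-CSF, and was above background in PBS replicate 2 only. Over the 9 tested Ifit, Oas and Mx genes the median difference was −0.04, with 5 below 0, 3 separated downward and 1 upward. Over all genes 44.1% lay below 0, 12.1% were separated downward and 18.6% upward. The median of the 9 genes was 0.28 against PBS replicate 1 and −0.49 against PBS replicate 2.

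Among other antiviral effectors, Samd9l and Cmpk2 were the highest with G-CSF and Usp18 the lowest. Samd9l, a restriction factor that blocks translation, gave signals of 1638 and 2428 under PBS against 4134 and 3518 under G-CSF. Both G-CSF arrays were higher, by 1.90-fold in the group means (0.93 ± 0.36, unadjusted p = 0.0503 and adjusted p = 0.988 by limma), the largest positive difference of the set. Cmpk2, a mitochondrial nucleotide kinase, had 349 and 705 under PBS against 1101 and 780 under G-CSF. G-CSF replicate 2 was only slightly above PBS replicate 2, and the difference of 0.87 ± 0.46 was 1.35 and 0.38 against PBS replicates 1 and 2. It was 0.04 with the mean of its probe sets, of which the other lay below the filter. Its neighbour Rsad2, viperin, had 1292 and 1658 under PBS against 1498 and 1286 under G-CSF, and these overlapped (−0.08 ± 0.34). Usp18, the protease that removes ISG15 from proteins and dampens the type I receptor, had 1195 and 855 under PBS against 662 and 614 under G-CSF. Both G-CSF values were lower, by 1.57-fold in the group means (−0.65 ± 0.35), with −0.41 against PBS replicate 2 alone.

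The remaining effectors overlapped between the groups, and most were highest in PBS replicate 2. Bst2, tetherin, gave signals of 400 and 992 under PBS against 526 and 447 under G-CSF (−0.37 ± 0.51). Rtp4 had 2118 and 4699 under PBS against 2958 and 3612 under G-CSF (0.05 ± 0.48). Both G-CSF arrays thus lay between the PBS arrays for these 2 genes. Ifi27l2a had 1149 and 2249 under PBS against 1050 and 1673 under G-CSF (−0.27 ± 0.48). Ifi35 had 4456 and 7246 under PBS against 5123 and 6014 under G-CSF (−0.03 ± 0.37). Xaf1, Sp100 and Trim30a differed by −0.03 ± 0.42, 0.22 ± 0.41 and 0.23 ± 0.33. Of these, Sp100, a nuclear body protein, had its lowest signal, 156, in PBS replicate 2, and Trim30a, a ubiquitin ligase, had 3725 and 3952 with G-CSF against 2831 and 3769 with PBS. Against PBS replicates 1 and 2 in turn, Bst2 differed by 0.26 and −0.9997, Rtp4 by 0.62 and −0.52, and Xaf1 by 0.42 and −0.48.

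**Figure D3:**
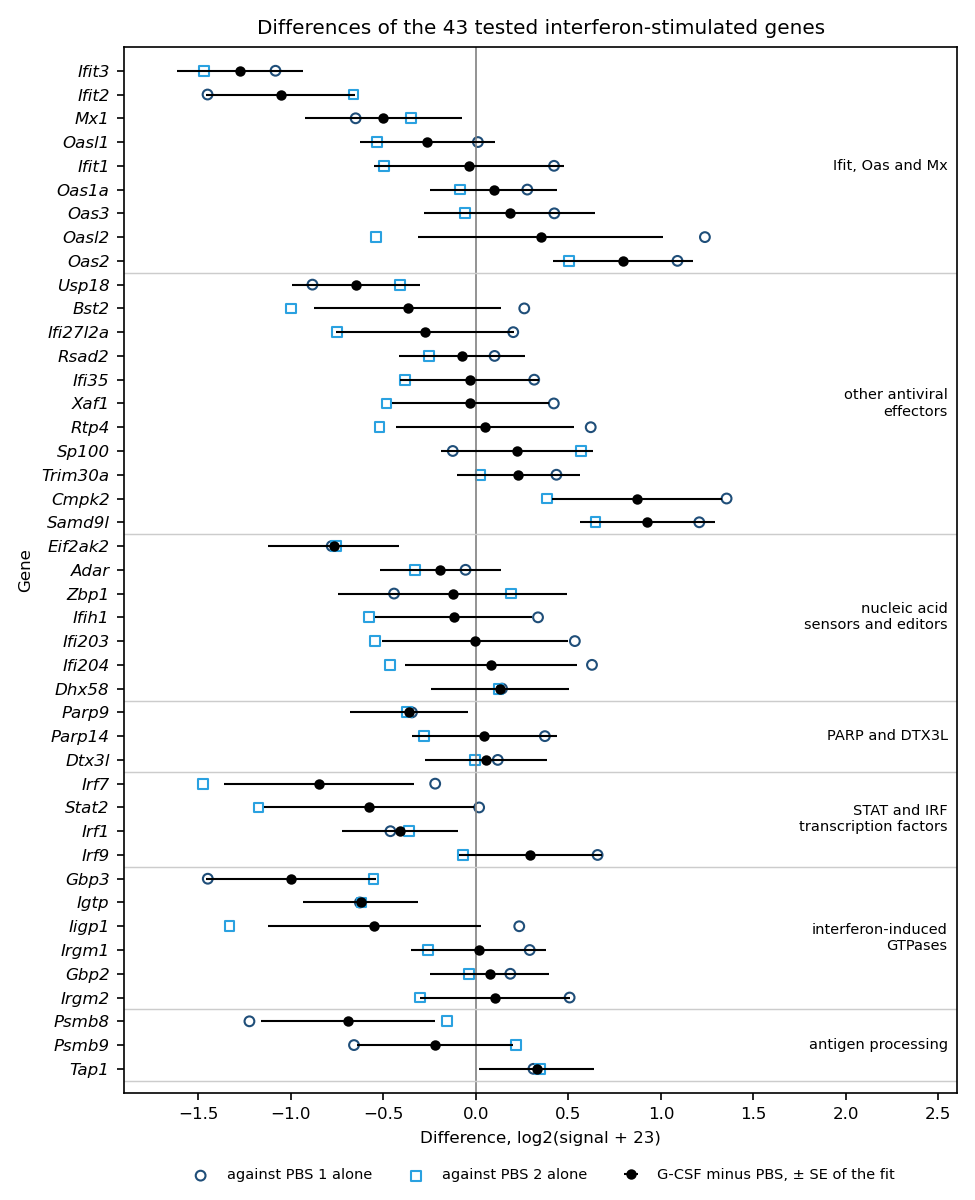
Difference between G-CSF and PBS on the log2(signal + 23) scale for the 43 tested genes by role, as points with the SE of the fit (2 arrays per group) and open symbols for the difference against each PBS array alone. Open symbols lie on both sides of 0 for 25 genes, and 3 points lie at or beyond −1.

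Nucleic acid sensors and editors were represented by 7 genes, of which Eif2ak2 and Adar separated the groups. That is 28.6%, beside 30.7% of all genes. Eif2ak2, the kinase PKR that halts translation on double-stranded RNA, gave signals of 262 and 257 under PBS against 153 and 133 under G-CSF. The replicates were close within each group, and the difference was −0.77 ± 0.35 (limma adjusted p = 0.988), with −0.78 and −0.76 against PBS replicates 1 and 2. With the mean of its 3 probe sets, of which the other 2 lay below the filter, it was −0.18. Adar, the enzyme that converts adenosine to inosine in double-stranded RNA, had 1151 and 1397 under PBS against 1093 and 1121 under G-CSF (−0.19 ± 0.33). The gap between its groups was narrow, and its other probe sets above the filter gave 0.43 and −0.74. Ifih1, the RNA sensor MDA5, had 1566 and 2969 under PBS against 1923 and 2045 under G-CSF (−0.12 ± 0.43). Dhx58, the RNA sensor LGP2, had 151 and 154 under PBS against 154 and 187 under G-CSF (0.13 ± 0.37). Neither sensor was separated by treatment, and the Ifih1 value of PBS replicate 2 was above the other 3. The DNA-binding Ifi203 had 98.6 and 234 under PBS against 143 and 165 under G-CSF, and Ifi204 had 416 and 914 against 689 and 624. In both, the G-CSF arrays lay between the PBS arrays (−0.0044 ± 0.50 and 0.08 ± 0.46). The Ifi203 value of PBS replicate 1 was below background. Zbp1, a sensor of Z-form nucleic acid, had 129 and 75.2 under PBS against 48.0 and 154 under G-CSF, and was above background on 2 of the 4 arrays.

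Of the 4 transcription factors, Irf7 and Irf1 had separated groups, beside 30.7% of all genes. Irf7, the factor that amplifies interferon alpha production, gave signals of 868 and 2105 under PBS against 657 and 838 under G-CSF. G-CSF replicate 2 was just below PBS replicate 1, so the difference of −0.85 ± 0.51 (limma adjusted p = 0.988) was −0.22 against PBS replicate 1 and −1.48 against PBS replicate 2. Irf1, a main interferon gamma target whose promoter stretch with a GAS match is shown above, had 2833 and 2638 under PBS against 2073 and 2029 under G-CSF. Its replicates were close and the groups did not overlap, although the difference was small (−0.41 ± 0.31, limma adjusted p = 0.988). Stat2, the STAT of type I and III interferon signalling, had 131 and 329 under PBS against 98.1 and 179 under G-CSF (−0.58 ± 0.57). Irf9, the DNA-binding partner of STAT2, had 373 and 632 under PBS against 644 and 561 under G-CSF (0.30 ± 0.39). Both genes overlapped between the groups, and their differences were 0.02 and −1.17, and 0.66 and −0.07, against PBS replicates 1 and 2.

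Interferon-induced GTPases, which attack the vacuoles of intracellular pathogens, differed among themselves. Igtp, also called Irgm3, gave signals of 3457 and 3435 under PBS against 2263 and 2200 under G-CSF. The PBS values nearly coincided, as did the G-CSF values, and the difference was −0.62 ± 0.31 (limma adjusted p = 0.988), with −0.63 and −0.62 against PBS replicates 1 and 2. Irgm2, the next gene, had 1275 and 2247 under PBS against 1821 and 1822 under G-CSF. Its G-CSF arrays were equal and lay between the PBS arrays (0.10 ± 0.40), although its promoter stretch is nearly the same as that of Igtp. The difference between these neighbours was not tested. Gbp3, a guanylate-binding protein, had 2045 and 1089 under PBS against 596 and 906 under G-CSF. PBS replicate 1 stood highest, and the difference of −1.0005 ± 0.46 (limma adjusted p = 0.988) was −1.45 and −0.55 against PBS replicates 1 and 2. Gbp2 had 770 and 903 under PBS against 835 and 926 under G-CSF, with no separation (0.07 ± 0.32). Iigp1 had 3215 and 9562 under PBS against 3607 and 3977 under G-CSF. Its PBS replicate 2 value stood far above the other 3, and the difference of −0.55 ± 0.58 was 0.23 and −1.33 against PBS replicates 1 and 2. Irgm1 had 706 and 1043 under PBS against 795 and 949 under G-CSF, with no separation (0.02 ± 0.36).

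The 10 GTPase, STAT and IRF genes together had a median difference of −0.48, with 6 below 0, 4 separated downward and 0 upward, beside 44.1%, 12.1% and 18.6% of all genes. All 10 were below 0 against PBS replicate 2 (median −0.46), while 4 of 10 were below 0 against PBS replicate 1 (median 0.10). With specific probe sets only, the median was −0.16, but over fewer genes. Gbp3, Irf1, Irf7 and Irf9 had no such probe set and were left out of it. The Ifit, Oas and Mx genes had a median of −0.04, and the difference between these groups of genes was not tested. The SD between replicates of such a median was 0.28 for the GTPase, STAT and IRF genes and 0.19 for the Ifit, Oas and Mx genes.

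The PARP and antigen-processing genes differed little. Parp9 and Dtx3l form a complex that modifies histones, and they lie next to each other with Parp14. Parp9 gave signals of 1312 and 1338 under PBS against 970 and 1090 under G-CSF (−0.36 ± 0.32), with both G-CSF arrays lower. Dtx3l had 2390 and 2608 against 2329 and 2896 (0.06 ± 0.33), and Parp14 had 1004 and 1593 against 1157 and 1478 (0.05 ± 0.39). Neither was separated, and the other Dtx3l probe set gave −0.44. Psmb8 and Psmb9 are immunoproteasome subunits that cut peptides for MHC class I, and Tap1 carries those peptides into the endoplasmic reticulum. Psmb8 had 2931 and 1387 under PBS against 1110 and 1390 under G-CSF. Psmb9 had 1463 and 786 under PBS against 842 and 1003 under G-CSF. Both were highest in PBS replicate 1, the array with high T cell markers, and differed by −0.69 ± 0.47 and −0.22 ± 0.42. Against PBS replicate 2 alone these were −0.16 and 0.22, and against PBS replicate 1 alone −1.22 and −0.66. Tap1, which lies between these genes, had 672 and 655 under PBS against 844 and 834 under G-CSF, with both G-CSF arrays higher (0.33 ± 0.31, limma adjusted p = 0.988). With the mean of its probe sets the difference was 0.57, but all its other probe sets lay below the filter and below background on every array.

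**Figure D4:**
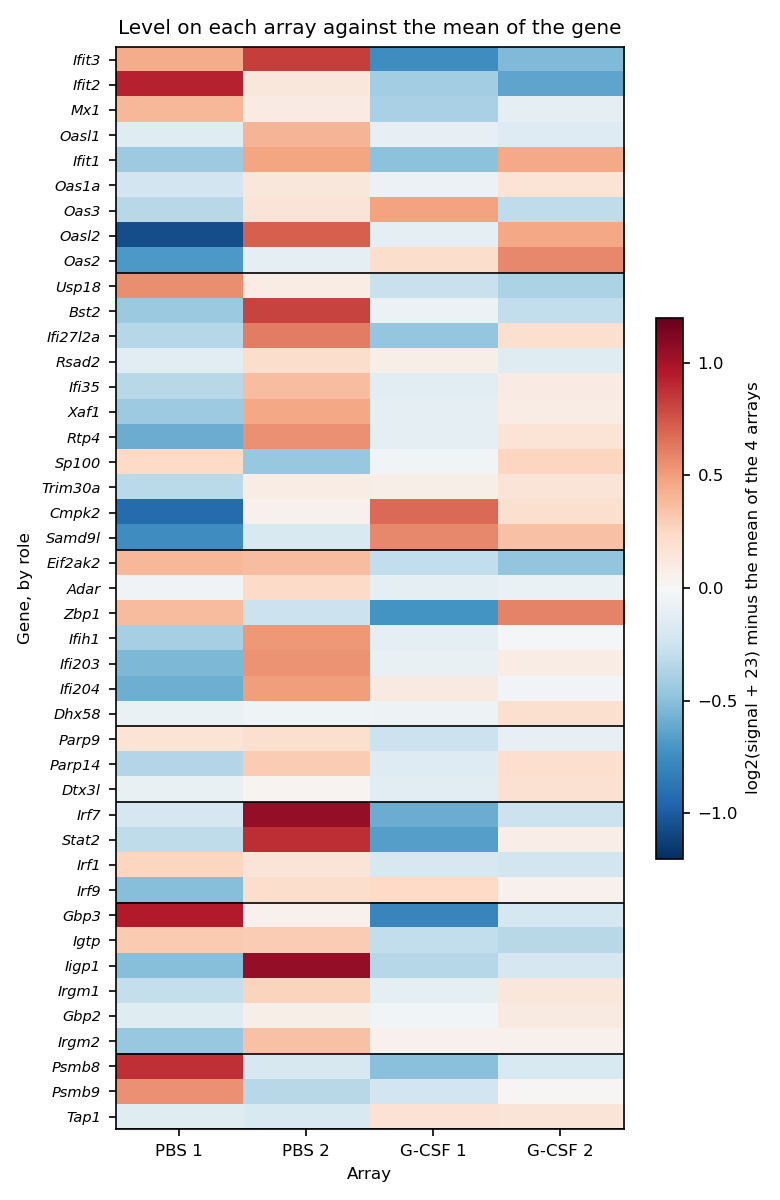
Level of the 43 genes on each array, as log2(signal + 23) minus the mean of the gene over the 4 arrays, grouped by role. The PBS replicate 2 column is above the mean for most genes, with a median of 0.22, and the PBS replicate 1 column is below it, with a median of −0.23, apart from genes such as Ifit2, Gbp3 and Psmb8.

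The interferons themselves were mostly below background. Ifng gave signals of 1.78 and 32.1 under PBS against 28.2 and 17.6 under G-CSF, and Ifnb1 had 31.8 and 37.4 against 33.4 and 21.7. Both were below the background limit on every array, so no difference is given. Of 10 interferon genes listed, 6 had a probe set and 1, Ifna1, passed the filter, with signals of 175 and 268 against 301 and 270 (0.36 ± 0.38, or 0.63 and 0.079 against PBS replicates 1 and 2).

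The receptor and signalling genes were mostly higher with G-CSF, and none passed the test. Of 17 tested, 14 lay above 0, with a median of 0.27, and 7 were separated upward and 2 downward. Over all genes 55.9% lay above 0, and 18.6% and 12.1% were separated. The median was 0.37 against PBS replicate 1 and 0.086 against PBS replicate 2, where 7 of 17 lay below 0. Ifnlr1, the receptor chain for interferon lambda, gave signals of 151 and 276 under PBS against 534 and 590 under G-CSF. Both G-CSF arrays were higher, by 2.57-fold in the group means (1.36 ± 0.40, unadjusted p = 0.0190 and adjusted p = 0.988 by limma). Ifngr2 had 311 and 301 under PBS against 442 and 490 under G-CSF (0.57 ± 0.32), and its partner Ifngr1 had 2425 and 2213 against 2184 and 1954 (−0.16 ± 0.32). The chains of the gamma receptor thus lay on opposite sides of 0, and this contrast was not tested. Ifnar1 had 988 and 1273 under PBS against 924 and 971 under G-CSF (−0.24 ± 0.33). Ptpn6, the phosphatase SHP-1, had 2304 and 1874 under PBS against 3150 and 2846 under G-CSF (0.52 ± 0.33). Irf8, a myeloid transcription factor, had 1623 and 2842 under PBS against 3046 and 3448 under G-CSF (0.59 ± 0.40), with 0.99 and 0.19 against PBS replicates 1 and 2.

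A second list of interferon-stimulated genes was read in the same way. Of its 36 tested genes, 0 were called by limma after adjustment and 0 had an unadjusted p below 0.05, with a median difference of 0.0026. Separated groups were found for 4 genes upward (11.1%) and 6 downward (16.7%), beside 18.6% and 12.1% of all genes. The median was 0.24 against PBS replicate 1 and −0.20 against PBS replicate 2, and 18 of the 36 were highest in PBS replicate 2. Gbp6, a guanylate-binding protein, gave signals of 650 and 810 under PBS against 510 and 406 under G-CSF (−0.65 ± 0.34). Isg20, an exonuclease, had 440 and 484 under PBS against 675 and 674 under G-CSF (0.53 ± 0.31). Slfn5 had 41.5 and 228 under PBS against 295 and 241 under G-CSF (1.19 ± 0.71). PBS replicate 1 was below background there, and the difference was 2.17 and 0.21 against PBS replicates 1 and 2. Ddx60 had 89.4 and 143 under PBS against 174 and 204 under G-CSF (0.63 ± 0.42), with 0.91 and 0.35 against PBS replicates 1 and 2. Its PBS replicate 1 value was also below background. The T cell chemoattractants Cxcl9 and Cxcl10 overlapped between the groups, with signals of 281 and 696 against 681 and 479 for Cxcl9 and 158 and 371 against 256 and 327 for Cxcl10. Against PBS replicates 1 and 2, Cxcl9 differed by 0.97 and −0.28 and Cxcl10 by 0.79 and −0.33.

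Differences were also set beside the promoter elements. The 16 tested genes with an ISRE core match had a median difference of −0.06, with 10 below 0, and the 16 tested genes whose windows had none had a median of −0.03, with 9 below 0. For GAS, the 10 genes with a match had a median of −0.39, with 8 below 0, and the 22 without had a median of 0.0063, with 11 below 0. These are descriptions of windows that hold a few letters, with no test.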

How the data were processed

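Total RNA (40 ng, amplified with the 3′ IVT Express kit per the labels' protocols) of 4 samples was measured on 45101 probe sets. The authors deposited linear intensity, made with MAS5 per the submitters' processing notes, whose version was not given in the sources used. Trimmed by 2% at each end, every array averaged 500, so no further scaling was applied, and 0 columns had no sample. Gene names came from the platform table. For genes outside the set they were updated by Entrez ID to RefSeq symbols, and listed names were also matched by RefSeq synonyms. Probe sets listing several genes (932) or none (9160) and 64 controls were left out. A pseudocount of 23 (the median value, 92.9, divided by 4 and rounded) was added before log2. Groups were fitted with limma 3.58.1 in R 4.3.3 (lmFit, eBayes with trend, two-sided), with 2 residual and 3.13 prior degrees of freedom and Benjamini-Hochberg adjustment over 12187 genes. The genes and lists were chosen with earlier results of these data known. Signals on all arrays are given for genes at least 2-fold apart with separated groups, those with an unadjusted p below 0.05, up to 5 per role by mean signal, the 5 highest and lowest differences, those most raised in 1 array, and, per pathway list, the 4 with the smallest p, besides a few named interferon genes. Others are given for completeness. The background limit was set after the data were seen. Tested on simulated data for this comparison (12187 genes, 20 sets), the fit called 0% of genes changed 2-fold, 0.4% of those changed 4-fold and 39.8% of those changed 16-fold. The simulated arrays varied independently, with the same spread per gene in both groups. The real arrays had a pooled SD of 0.82 for PBS and 0.29 for G-CSF. Alternatives were another normalization, pseudocount, filter, variance model or probe set choice, the replicate block and each array left out. Figures used Python 3.11.15 and matplotlib 3.10.9.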

Additional observations from a re-analysis of the deposited data

How the results depend on the processing

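No gene of the set was called in any of the 11 settings that kept all 4 arrays, while the number called among all genes went from 0 to 33 with array weights and 11 with specific probe sets. The deviations of same-numbered samples from their group means had r = −0.038 over genes. With 2 arrays per group, the deviations of replicate 2 mirror those of replicate 1. This value therefore cannot decide whether the numbers pair the samples. With the replicate number as a block, 92 genes were called and 0 of the set. Leaving out 1 array gave 6 to 4689 genes in all and 0 to 11 of the set. Without PBS replicate 1 the 3 called were Ifit3, Irf7 and Iigp1, all lower (6.98% of the set, 4.23% of all genes). Without PBS replicate 2, 5 were higher and 6 lower (25.6% of the set, 38.5% of all genes). The group left with 1 array was assumed to vary like the other, although the pooled SD was 0.82 for PBS and 0.29 for G-CSF.

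Genes at least 2-fold apart without overlap numbered 1 with a pseudocount of 92 and 2 to 8 with 1 array left out. A group left with 1 array separates more readily, so the counts of 2 to 8 are not comparable with those from 4 arrays. Without 1 array, the median ran from −0.36 to 0.20 for the set and −0.49 to 0.28 for Ifit, Oas and Mx genes. It ran from −0.50 to 0.10 for GTPase, STAT and IRF genes and −0.20 to 0.24 for the second list. With specific probe sets, the GTPase, STAT and IRF median was −0.16, without Gbp3, Irf1, Irf7 and Irf9.

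For 18 of 43 genes the sign was the same in every setting that tested the gene. Some of these 18 were not tested in all 15 settings, such as Mx1 and Dhx58, each tested in 13. With the mean of all probe sets it turned for Rsad2 (0.26), Dtx3l (−0.19) and Rtp4 (−0.21). With median centring it turned for Irgm1 (−0.044), Parp14 (−0.014), Dtx3l (−0.0044) and Rtp4 (−0.011), with a pseudocount of 1 for Ifi203 (0.011), and with specific probe sets for Sp100 (−0.011). Leaving out 1 array turned 25 genes. Their ranges were −0.51 to 0.44 for Ifit1, −0.085 to 0.28 for Oas1a, −0.21 to 0.58 for Oas3, −0.53 to 0.011 for Oasl1, −0.54 to 1.24 for Oasl2 and −0.25 to 0.10 for Rsad2. They were −0.068 to 0.66 for Irf9, −1.17 to 0.018 for Stat2, −0.58 to 0.34 for Ifih1, −0.38 to 0.32 for Ifi35, −0.75 to 0.20 for Ifi27l2a, −0.54 to 0.54 for Ifi203, −0.46 to 0.63 for Ifi204 and −0.9997 to 0.26 for Bst2. GTPase ranges were −0.037 to 0.19 for Gbp2, −0.26 to 0.29 for Irgm1, −0.30 to 0.51 for Irgm2 and −1.33 to 0.23 for Iigp1. The others were −0.28 to 0.37 for Parp14, −0.10 to 0.21 for Dtx3l, −0.78 to 0.53 for Zbp1, −0.48 to 0.42 for Xaf1, −0.52 to 0.62 for Rtp4, −0.12 to 0.57 for Sp100 and −0.66 to 0.22 for Psmb9. The causes were not tested.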

Other observations

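The sensors and adaptors that lead to interferon production lay mostly above 0. Of 12 tested, 10 were higher with G-CSF, with a median difference of 0.16, and 5 were separated upward and 0 downward, beside 55.9% above 0, 18.6% upward and 12.1% downward over all genes. The median was 0.37 against PBS replicate 1 and 0.027 against PBS replicate 2, where 5 of 12 lay below 0. None passed limma after adjustment and 0 had an unadjusted p below 0.05. Myd88, the adaptor of most Toll-like receptors, gave signals of 666 and 1790 under PBS against 2503 and 2640 under G-CSF (1.21 ± 0.54), and differed by 1.91 and 0.52 against PBS replicates 1 and 2. Cgas, the cytosolic DNA sensor, gave 516 and 376 under PBS against 679 and 551 under G-CSF (0.45 ± 0.35). Both G-CSF arrays were above both PBS arrays for these 2 genes. Ticam1, the adaptor TRIF, gave 166 and 173 under PBS against 235 and 218 under G-CSF (0.38 ± 0.35). Tlr9, the endosomal DNA receptor, gave 85.8 and 100.01 under PBS against 167 and 96.4 under G-CSF, and these overlapped. The Tlr9 value of PBS replicate 1 was below background. Markers of plasmacytoid dendritic cells, which are strong interferon alpha producers, differed in direction. The median over 6 tested was −0.56 (−1.04 and −0.0075 against PBS replicates 1 and 2). Below 0 lay 4 of them, Ccr9 at −2.81, Ly6d at −0.87, Klk1 at −0.64 and Pacsin1 at −0.48. Above 0 lay Tcf4 at 0.36 and Cox6a2 at 0.43, and Cox6a2 was separated upward. Ccr9 gave 8433 in PBS replicate 1, the array with high T cell markers, and 81.7 to 118 on the other arrays. Siglech gave 49.3 and 34.6 under PBS against 94.0 and 104 under G-CSF and lay below the filter. It was above the background limit on the G-CSF arrays only.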
